A study of Mus musculus with 6 samples.

Results

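The genes described here are 9 that act at the manchette or sever microtubules while the spermatid head takes its shape: Hook1, Rimbp3, Clip1, Cep131, Katna1, Katnal2, Lrguk, Iqcg and Spef2. They were chosen by name, and all 9 were found among the 55711 entries of the deposited table of gene expression. Testis RNA of C57BL6 mice was sequenced in 6 libraries, of which 3 controls were heterozygous for Tmc7 and 3 were labelled Tmc7 knockout. Every library of the comparison therefore carried at least 1 altered Tmc7 allele by its label, and no wild-type library is among those analysed here. The labels give neither the age of the mice nor the nature of the allele. Nor do they tell whether each library came from its own animal, so p-values here reflect no more than the spread among these samples, in part perhaps technical. The libraries are named as in the titles: Ctrl1, Ctrl2 and Ctrl3 for the controls, and KO1, KO2 and KO3 for those labelled knockout.

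The manchette is a transient skirt of microtubules that forms around the nucleus of the elongating spermatid and is taken down again before the sperm is released. It shapes the nucleus from outside and serves as a track along which vesicles and tail proteins are moved towards the growing flagellum. Linker proteins such as HOOK1 tie it to its surroundings, plus-end proteins tend the growing tips of its microtubules, and katanins, enzymes that use ATP to cut microtubules, trim and dismantle it. Mice that lack one of these proteins often make sperm with misshapen heads, short tails or both. The series title places the product of Tmc7, a transmembrane channel-like protein, in elongated spermatids.

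Levels are in FPKM, reads per kilobase of a gene after scaling for depth. Comparing levels between genes therefore rests on the deposited gene length. For Lrguk this was 12068 bases, against 4020 bases in its longest coding sequence. The 6 libraries held 17059486 to 19343479 reads on genes, as worked back from the deposited values. Tmc7 transcript did not separate the groups, with 37.2 to 39.1 FPKM across controls against 35.1 to 43.8 FPKM across KO libraries, so its level does not check the labels. Markers of germ cells at every stage were present, while 9 of 10 epididymal markers were below the minimum mean of 0.5 FPKM used for testing. The libraries differed in their level of late spermatid transcripts. The mean level of 28 elongated spermatid genes on the log2(FPKM + 1) scale, centred on the mean of the 6 libraries, was 0.41, 0.21 and -0.16 in Ctrl1 to Ctrl3, against 0.30, -0.24 and -0.52 in KO1 to KO3. KO1 thus stood with Ctrl1 and Ctrl2, and Ctrl3 stood with KO2. In testis RNA, fewer cells of a type and less RNA per cell cannot be told apart.

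All 9 genes were expressed in every library, with mean levels from 4.47 to 180.7 FPKM. Rimbp3 was the highest, with a mean of 180.7 FPKM over the 6 libraries, above 98.8% of the 19168 genes tested. Hook1 followed at 51.6 FPKM. Cep131, Clip1 and Katnal2 formed a middle group at 25.9, 24.02 and 23.7 FPKM. Iqcg was at 15.99, Katna1 at 10.48, Spef2 at 7.36 and Lrguk at 4.47 FPKM, the last of them above 54.9% of the genes tested. Hook1 was below Rimbp3 and above Cep131 in 6 of 6 libraries, though its lowest value lay under the highest of Cep131. The order from Katnal2 down to Lrguk held in 6 of 6 libraries at each step without overlap of the 2 genes' ranges. The order within the middle group did not: Cep131 was above Clip1 in 4 of 6 libraries and Clip1 above Katnal2 in 3 of 6. Order by FPKM depends on the gene lengths. Lrguk, at 12068 bases, had 872 to 1080 reads, while Katna1, at 2195 bases, had 397 to 466.

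**Figure D1:**
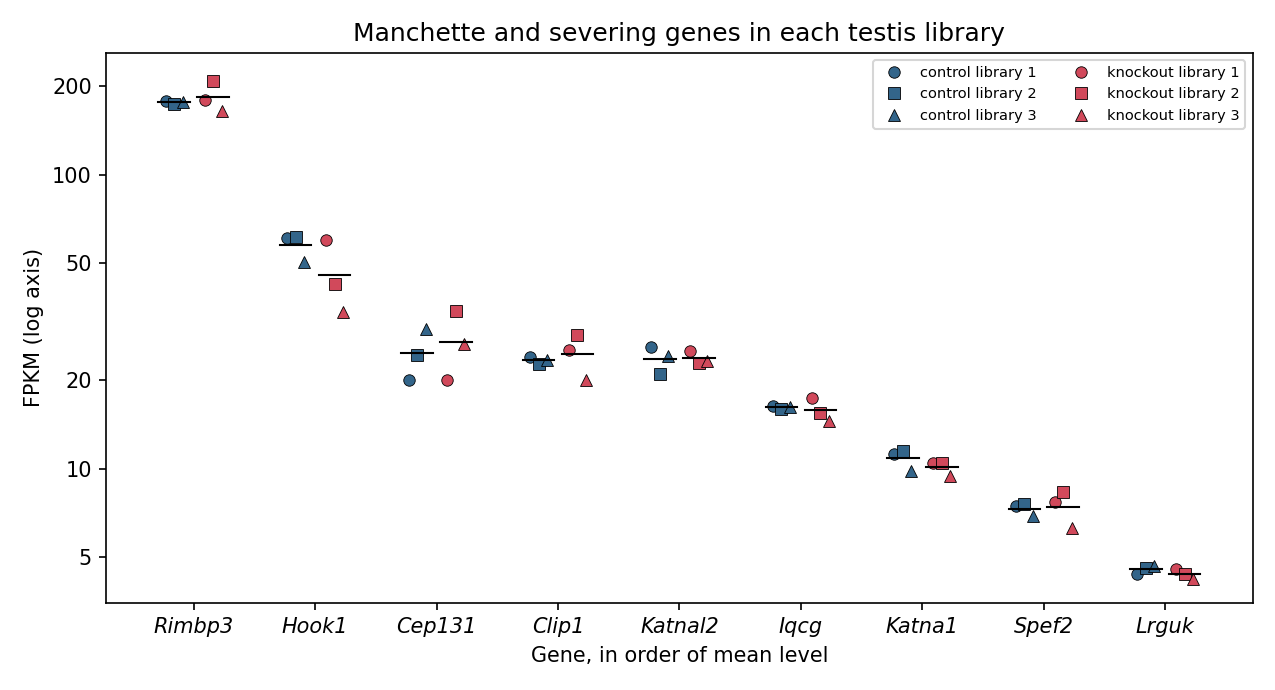
FPKM on a log axis of each of the 9 genes in each library, with controls in blue, KO libraries in red, the marker shape giving the library number and a black line the mean of 3. The groups of every gene overlap, and Hook1 and Cep131 spread the most.

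None of the 9 genes passed the test between the groups. By limma on log2(FPKM + 1), with Benjamini-Hochberg adjustment over all 19168 genes tested and a threshold of 0.05, 0 of 9 were called, where 0% of all genes were called. At an unadjusted p under 0.05 the count was also 0 of 9, against 1.48% of all genes tested higher and 2.38% lower, and limma-voom on the recovered reads called 0 of 9. In 0 of 9 did the groups stand apart without overlap, against 8.56% of all genes tested (4.15% higher and 4.41% lower). Mean values were lower in the KO libraries for 4 of 9, where 51.4% of all genes were lower. The median log2 difference of the 9 was 0.0080, beside -0.0058 for all genes tested. The 95% intervals limit what could have been missed. Outside Hook1 and Cep131, every interval lay between -0.32 and 0.37 on the log2 scale.

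**Figure D2:**
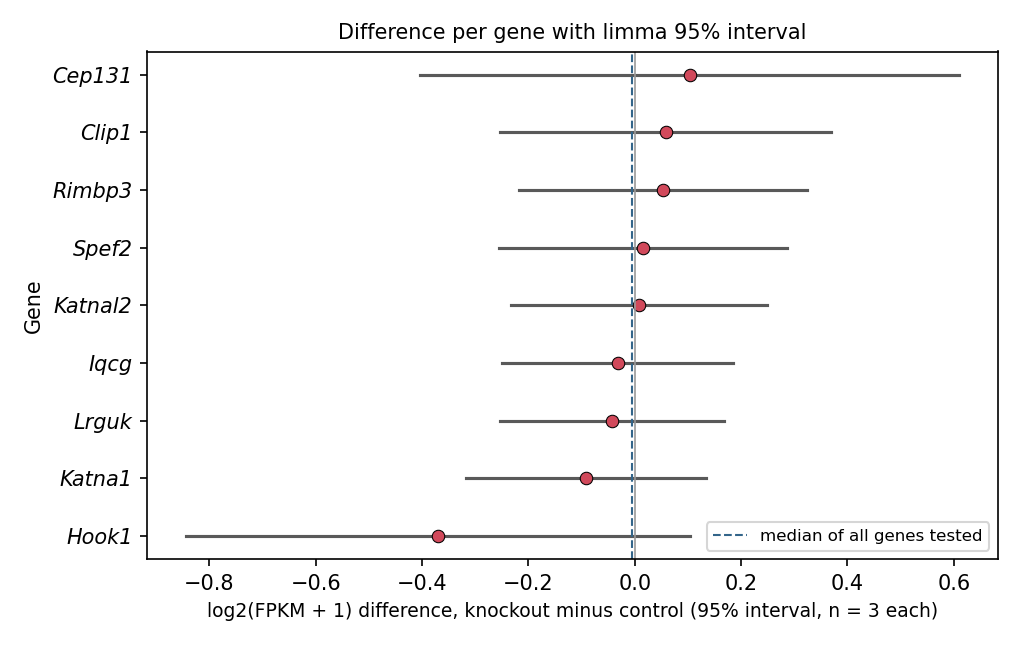
Difference in log2(FPKM + 1) between 3 KO libraries and 3 controls for each gene (point), with its 95% interval from limma (line), and the median of all genes tested (dashed). All 9 intervals cross 0, and those of Hook1 and Cep131 are the widest.

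Among the linkers, Hook1 encodes a coiled-coil adaptor that ties the manchette and cargo to microtubules, and a mutation in it causes the abnormal sperm head shape of the azh mouse. The gene (ENSMUSG00000028572) is on chromosome 4 at 95967240 to 96025413, plus strand (GRCm38, the build of all positions here). Its longest coding transcript has 22 exons. Hook1 was at 61.2, 61.6 and 50.5 FPKM in Ctrl1 to Ctrl3 and at 59.9, 42.5 and 34.1 FPKM in KO1 to KO3. KO1 lay among the controls, and KO2 and KO3 lay below all of them. Means were 57.8 ± 6.29 and 45.5 ± 13.2 FPKM (SD, n = 3 each), a ratio of 0.787. On the log2 scale the difference was -0.37 (standard error 0.20), with a 95% interval from -0.84 to 0.10 (limma adjusted p = 0.868). It was -0.19 without KO3 and -0.58 without KO1, with limma adjusted p of 0.999 and 0.159.

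The values of Hook1 ran alongside the late spermatid level of the libraries. Centred on the mean of the 6 libraries, Hook1 was at 0.27, 0.28 and 0.00064 in Ctrl1 to Ctrl3 and at 0.24, -0.24 and -0.55 in KO1 to KO3, on the log2 scale. The elongated spermatid level in the same libraries, given above, had its 3 highest values in the same 3 libraries and its lowest in the same library. This order was not particular to Hook1. Katna1 shared it, at 0.096, 0.12 and -0.080 in Ctrl1 to Ctrl3 and -0.0033, -0.0034 and -0.13 in KO1 to KO3. None of the 28 elongated spermatid genes was called. Their median log2 difference was -0.28, a value that rests on single libraries: it was -0.15 without Ctrl1, -0.45 without Ctrl3, -0.53 without KO1 and -0.091 without KO3, and -0.17 after quantile normalization. KO2 and KO3, with the least Hook1, also had 0.335% and 0.281% of their reads on gene models of small and ribosomal RNA, where the other 4 libraries had 0.0949% to 0.105%. The part of either in the Hook1 difference was not tested.

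Rimbp3 encodes a manchette protein that binds HOOK1. It is a gene of 1 exon (ENSMUSG00000071636) on the plus strand of chromosome 16 from 17208603 to 17213982. It was at 179, 174.5 and 177 FPKM in Ctrl1 to Ctrl3, which differed by little, and at 180.3, 209 and 164 FPKM in KO1 to KO3, of which KO3 lay below and the other two above all controls. The log2 difference was 0.053, with 0.11 as its standard error (limma adjusted p = 0.926). The ratio of Hook1 to Rimbp3 within a library was 0.342, 0.353 and 0.285 in Ctrl1 to Ctrl3 and 0.332, 0.204 and 0.207 in KO1 to KO3. KO2 and KO3 thus held less Hook1 per Rimbp3 than the other 4 libraries.

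Clip1 encodes CLIP-170, which binds growing microtubule ends. The gene (ENSMUSG00000049550) is on chromosome 5 at 123577795 to 123684618, minus strand. Clip1 was at 23.9, 22.8 and 23.5 FPKM in Ctrl1 to Ctrl3 and at 25.4, 28.6 and 19.99 FPKM in KO1 to KO3. As with Rimbp3, KO2 was the highest of all 6 libraries and KO3 the lowest. The log2 difference was 0.059, with 0.13 as its standard error (limma adjusted p = 0.929).

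Cep131, also known as AZI1, encodes a protein of centriolar satellites that is also found at the manchette. The gene (ENSMUSG00000039781) is on chromosome 11 at 120064430 to 120086827, minus strand. It was at 20.1, 24.3 and 29.98 FPKM in Ctrl1 to Ctrl3 and at 20.04, 34.4 and 26.5 FPKM in KO1 to KO3. Low and high values occurred in both groups, with Ctrl1 and KO1 as the lowest pair. On the log2 scale the difference was 0.10 (standard error 0.21), with a 95% interval from -0.40 to 0.61 (limma adjusted p = 0.924). The 3 libraries with the most Hook1 (Ctrl1, Ctrl2 and KO1) were the 3 with the least Cep131, and the ratio of Hook1 to Cep131 ran from 3.05 in Ctrl1 to 1.24 in KO2. Cep131 was highest in KO2, where the mean levels of 10 tested peritubular myoid genes and 12 Leydig genes were also the highest of the 6, at 0.35 and 0.22 on the centred log2 scale. The levels of 17 Sertoli and 13 leukocyte genes were instead highest in KO3, at 0.28 and 0.26, against 0.080 and 0.25 in KO2. Cep131 was at 0.060 in KO3. In Ctrl3, where Cep131 was at 0.23 on that scale, the myoid level was -0.033 and the Leydig level 0.080. In KO1, where Cep131 was lowest, at -0.33, the myoid level was -0.14 but the Leydig level 0.18. Whether other cells contribute to the Cep131 level was not tested.

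The severing enzymes Katna1 and Katnal2 ranged over 0.25 and 0.29 on the log2 scale across the 6 libraries, less than the 4 genes above, which ranged over 0.34 to 0.84. Katna1 encodes the p60 catalytic subunit of katanin (ENSMUSG00000019794, plus strand of chromosome 10 from 7726000 to 7763150). It was at 11.2, 11.5 and 9.84 FPKM in Ctrl1 to Ctrl3 and at 10.4, 10.4 and 9.46 FPKM in KO1 to KO3 (log2 difference -0.092, standard error 0.10, limma adjusted p = 0.869). All 3 KO libraries were below the control mean, but only KO3 was below every control. It shares 12.5% of its distinct 31-base words with other genes, mostly Gm6524, so part of its reads may be assigned elsewhere.

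Katnal2 encodes a katanin-like ATPase that male mice need to make functional sperm (ENSMUSG00000025420, chromosome 18 at 76977148 to 77047308, minus strand). It was at 25.96, 21.04 and 24.1 FPKM in Ctrl1 to Ctrl3 and at 25.2, 22.8 and 23.3 FPKM in KO1 to KO3, all inside the control range. Means were 23.7 ± 2.49 and 23.8 ± 1.26 FPKM (SD, n = 3 each; log2 difference 0.0080, standard error 0.10, limma adjusted p = 0.989). Katnal2 transcript was more abundant than Katna1 in every library, by a ratio of 1.83 to 2.46.

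The other severing genes were measured beside them. Of 8 listed, 7 were in the table and 5 were tested, of which 0 were called, 1 was higher and 4 lower in mean value, with a median log2 difference of -0.048. Spast, which encodes the severing enzyme spastin, was at 24.5 ± 0.419 FPKM for the controls and 23.1 ± 1.41 FPKM for the KO libraries (SD, n = 3 each). Katnbl1, which encodes a katanin-binding protein, was at 1.34 ± 0.211 and 1.03 ± 0.288 FPKM, with the smallest unadjusted p of the list (limma adjusted p = 0.868). Fign and Fignl2 were below the minimum.

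The remaining 3 genes serve both manchette and tail. Lrguk encodes a protein with leucine-rich repeats and a guanylate kinase domain that is needed for the manchette and for axoneme growth (ENSMUSG00000056215, plus strand of chromosome 6 from 34029448 to 34134034). It was the flattest of the 9, at 4.39, 4.59 and 4.66 FPKM in Ctrl1 to Ctrl3 and 4.56, 4.39 and 4.21 FPKM in KO1 to KO3 (log2 difference -0.042, standard error 0.09, limma adjusted p = 0.926). Its highest library exceeded its lowest by 1.11-fold, while for Hook1 this was 1.81-fold.

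Iqcg encodes a calmodulin-binding subunit of the nexin-dynein regulatory complex of the axoneme (ENSMUSG00000035578, chromosome 16 at 33012683 to 33056218, minus strand). It was at 16.3, 15.99 and 16.2 FPKM in Ctrl1 to Ctrl3 and at 17.5, 15.5 and 14.5 FPKM in KO1 to KO3. The controls were nearly equal, and the other libraries lay on both sides of them (log2 difference -0.032, standard error 0.09, limma adjusted p = 0.946). Its value is uncertain: the gene overlaps Lrch3 on the opposite strand over 2965 bases. It also lies wholly within Gm17106 on the same strand, an overlap of 43536 bases. Iqcg shares 47.7% of its 31-base words, on either strand, with transcripts of other genes. Whether reads were counted by strand is not stated in the labels. Lrch3 itself had a mean of 2.89 FPKM, and Gm17106 one of 0.041 FPKM.

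Spef2 encodes a protein of the central apparatus of the tail that also sits on the manchette and binds the transport protein IFT20 (ENSMUSG00000072663, chromosome 15 at 9578193 to 9748868, minus strand). It was at 7.44, 7.57 and 6.89 FPKM in Ctrl1 to Ctrl3 and at 7.69, 8.30 and 6.29 FPKM in KO1 to KO3, again with KO2 the highest and KO3 the lowest of all 6. The log2 difference was 0.016, with 0.11 as its standard error (limma adjusted p = 0.982).

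Sequences upstream of 3 of these genes are shown because they include the most variable pair, Hook1 and Cep131, and the flattest gene, Lrguk. They come from RefSeq windows of 250 bases before a gene's start in GRCm38.p6, which matched 6 of the 9 symbols. The window of Clip1 lay wholly inside its annotated gene. Those of Hook1 and Iqcg lay partly inside, with 111 and 218 bases outside. The Hook1 stretch also lies within another annotated gene on the opposite strand. Rimbp3, Katna1 and Katnal2 had no entry. Each is written 5′ to 3′ on the gene's own strand, at chr4:95967129-95967239 for Hook1 (plus; the part outside the annotated gene), chr11:120086828-120087077 for Cep131 (minus) and chr6:34029198-34029447 for Lrguk (plus). Capitals mark matches on either strand to 5 motifs: TGACGTCA (the cAMP response element), GTTGCC (an X-box half-site), CAGTTG (a MYB site), CCAAT and TATAAA.
Hook1: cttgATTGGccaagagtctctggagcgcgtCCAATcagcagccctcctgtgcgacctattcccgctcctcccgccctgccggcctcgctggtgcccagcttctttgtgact
Cep131: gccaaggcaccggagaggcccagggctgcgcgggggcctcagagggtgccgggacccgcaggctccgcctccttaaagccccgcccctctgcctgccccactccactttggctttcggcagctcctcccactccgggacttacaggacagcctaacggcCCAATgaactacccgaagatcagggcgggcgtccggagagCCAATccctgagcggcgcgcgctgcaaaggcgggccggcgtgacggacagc
Lrguk: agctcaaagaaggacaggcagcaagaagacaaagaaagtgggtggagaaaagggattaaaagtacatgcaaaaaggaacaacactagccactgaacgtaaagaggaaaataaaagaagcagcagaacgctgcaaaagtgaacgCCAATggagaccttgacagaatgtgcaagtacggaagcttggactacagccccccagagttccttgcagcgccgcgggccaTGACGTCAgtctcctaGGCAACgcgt
In Lrguk the TGACGTCA match lay 19 to 26 bases before the start, and an X-box half-site lay 5 to 10 bases before it, on the reverse strand. Only 1 of the 6 windows held TGACGTCA, a motif found in 1.55% of all 32851 windows of this length. CCAAT occurred in 3 of 6 (Hook1, Cep131 and Lrguk; 33.8% of all windows) and GTTGCC in 2 of 6 (Lrguk and Iqcg; 10.4% of all). CAGTTG and TATAAA, in 11.1% and 12.4% of all windows, matched in 0 of 6. Hook1 and Cep131 both had 2 CCAAT matches, with a GC content of 70.4% and 70% over the whole window. Clip1, with 0 motif matches, was close to them at 69.6%. Spef2, Lrguk and Iqcg were at 51.2%, 49.2% and 48.8%. A match is only a description of these letters.

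Single libraries stood apart for several of the 9 genes. KO3 was the lowest of the 6 for 7 of 9 genes, all but Cep131 and Katnal2, where 22.8% of all genes tested had their lowest value there. KO2 was the highest for 4 of 9, namely Rimbp3, Clip1, Spef2 and Cep131, against 21.4% of all genes tested. The median deviation of all genes tested was -0.0066 in KO2 and -0.0055 in KO3. On the centred log2 scale Rimbp3 was at 0.21 in KO2 and -0.13 in KO3, Clip1 at 0.25 and -0.25, and Spef2 at 0.16 and -0.19. The controls of these 3 genes stayed within 0.08 of the mean of the 6 libraries. KO3 also stood apart in markers of somatic cells. The mean level of 12 Leydig genes was -0.52 there, against -0.055 to 0.22 in the other libraries, and that of 17 Sertoli genes was the highest of the 6, at 0.28. The Leydig genes did not all move together. In KO3 Star was at its lowest, at 4.79 FPKM, while Hsd3b1 and Nr5a1 were at their highest, at 46.1 and 13.7 FPKM. The part of somatic cells in the low values of KO3 was not tested.

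**Figure D3:**
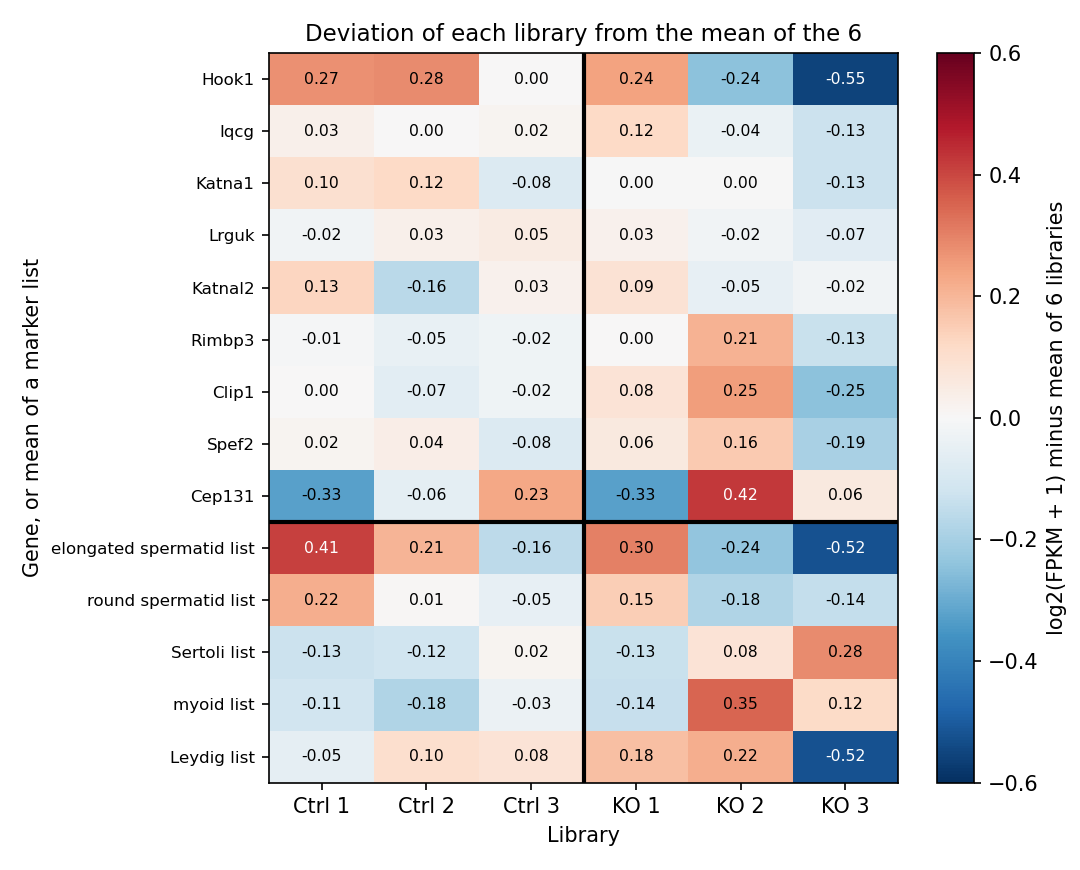
Centred log2(FPKM + 1) of the 9 genes and of the mean of 5 marker lists in each library (columns), red above and blue below the mean of the 6 libraries. Hook1 is at -0.55 in KO3 beside an elongated spermatid level of -0.52, while Cep131 reaches 0.42 in KO2.

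The KO libraries were more spread than the controls for most of the 9 genes, as they were for most of all genes tested. The coefficient of variation was higher among them for 7 of 9 genes, where the same held for 65.5% of all genes tested. It was 12.1% against 1.30% for Rimbp3, 17.6% against 2.45% for Clip1, 9.45% against 0.980% for Iqcg and 29.0% against 10.9% for Hook1. Katna1 and Katnal2, the severing enzymes, were the exceptions, at 5.52% against 8.12% and 5.30% against 10.49%. Counting error was small beside this for most: the fewest reads behind a value were 5527 for Hook1 and 15849 for Rimbp3, a counting error of 1.35% and 0.794%. For Iqcg with 1653 reads it was 2.46%, above the 0.980% of its controls, which thus agreed more closely than counting alone would give. For Lrguk with 872 reads it was 3.39%, between the coefficients of variation of its groups (3.02% and 3.98%). For Katna1 with 397 reads it was 5.02%, close to the spread of the KO libraries and smaller than that of the controls. These errors cover counting only.

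Hook1 and Cep131 were the 2 of 9 genes whose values ranged over more than 0.5 on the log2 scale, as did 43.1% of all genes tested. Clip1, at 0.495, lay just under that limit. Among 7091 other protein-coding genes averaging 5 FPKM or more, those with the profile most like Hook1 over the 6 libraries were Spata7 and Zfp558, at a root-mean-square distance of 0.039 and 0.039 on the log2 scale. Spata7 was at 32.1, 31.5 and 26.7 FPKM in Ctrl1 to Ctrl3 and 33.3, 22.9 and 18.5 FPKM in KO1 to KO3. For Cep131 they were Rras2 and Psme2b, at distances of 0.065 and 0.072. Rras2 was at 4.52, 5.61 and 7.04 FPKM in Ctrl1 to Ctrl3 and 4.36, 7.17 and 6.22 FPKM in KO1 to KO3.

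The wider set of manchette genes was measured beside the 9. Of 31 further proteins placed at the manchette or needed for transport along it, 31 were tested, 0 were called, 12 were higher and 19 lower in mean value, and the median log2 difference was -0.023. Meig1, which recruits cargo to the manchette, was at 542 ± 80.6 FPKM for the controls and 454 ± 110.05 FPKM for the KO libraries, and Ropn1l, a sperm tail protein, at 972 ± 97.3 and 867 ± 113 FPKM (SD, n = 3 each). Ccdc38 was at 122 ± 3.93 and 106 ± 12.3 FPKM (log2 difference -0.21, limma adjusted p = 0.868). Dlec1 was the gene of this list whose groups did not overlap, at 15.99, 17.088 and 16.98 FPKM in Ctrl1 to Ctrl3 and 17.135, 19.7 and 19.2 FPKM in KO1 to KO3 (log2 difference 0.15, limma adjusted p = 0.868).

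The relatives and partners of HOOK1 and RIMBP3 gave 4 higher and 4 lower of 8 tested, with 0 called and a median of 0.015. Hook1 had the highest level of the Hook genes: Hook2 was at 18.5 ± 1.06 and 19.7 ± 3.12 FPKM, and Hook3 at 0.689 ± 0.112 and 0.669 ± 0.135 FPKM. The gene lengths behind these levels were 8318 bases for Hook1, 3978 for Hook2 and 28486 for Hook3. The ratio of Hook1 to Hook2 was 3.12 ± 0.286 for the controls and 2.29 ± 0.414 for the KO libraries (SD, n = 3 each), a description that was not tested. Ccdc181, which encodes a binding partner of HOOK1, was at 187 ± 7.33 and 176 ± 13.03 FPKM. Fam160b2 was at 23.9 ± 1.15 and 23.96 ± 2.04 FPKM. The smallest unadjusted p values of the list belonged to 2 genes with differences of opposite sign. Fam160a2 was at 5.51 ± 0.235 and 6.28 ± 0.559 FPKM (log2 difference 0.16, limma adjusted p = 0.868). Aktip, of the complex that joins Hook proteins to vesicles, was at 5.39 ± 0.876 and 4.40 ± 0.936 FPKM (log2 difference -0.25, limma adjusted p = 0.868).

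Plus-end tracking genes around Clip1 gave 8 higher and 7 lower of 15 tested, with 0 called and a median of 0.019. Clip4, a relative of CLIP-170, was more abundant than Clip1, at 61.6 ± 6.61 and 51.8 ± 11.06 FPKM. Slain2, which encodes a protein of growing microtubule ends, was at 41.1 ± 1.36 and 36.1 ± 5.64 FPKM. Clip3 was higher in every KO library than in any control, at 1.90, 1.89 and 1.997 against 2.35, 4.41 and 2.31 FPKM, with a log2 difference of 0.42 and a limma adjusted p of 0.868. Pafah1b1, which encodes the dynein regulator LIS1, was at 35.6 ± 2.28 and 30.5 ± 4.66 FPKM.

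Centriolar satellite genes around Cep131 gave 6 higher and 8 lower of 14 tested, with 0 called and a median of -0.036. Ssx2ip, a satellite protein, was at 97.5 ± 8.43 and 85.6 ± 16.3 FPKM, and Cep63, a centriole duplication factor, at 67.1 ± 3.70 and 62.2 ± 5.52 FPKM. Ofd1 lay lower in every KO library, at 2.31, 2.13 and 2.28 against 2.03, 2.05 and 1.497 FPKM (log2 difference -0.19, limma adjusted p = 0.868).

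Nexin-dynein and central apparatus genes, the tail partners of Iqcg and Spef2, gave 12 higher and 6 lower of 18 tested, with 0 called and a median of 0.020. The most abundant were Ccdc65, another nexin-dynein gene, at 133.5 ± 10.6 and 134.7 ± 5.87 FPKM (log2 difference 0.015), and Ak8, an adenylate kinase gene, at 128 ± 9.98 and 126 ± 7.01 FPKM (log2 difference -0.026). Drc7, a subunit of the nexin-dynein regulatory complex, was at 34.97, 31.7 and 33.8 FPKM in Ctrl1 to Ctrl3 and 37.6, 44.2 and 37.5 FPKM in KO1 to KO3, without overlap. Its log2 difference was 0.24 (standard error 0.10), with an unadjusted p of 0.0446 and a limma adjusted p of 0.868. Iqcd, another subunit, was at 37.3 ± 1.02 and 40.002 ± 0.723 FPKM, also without overlap (limma adjusted p = 0.868). Groups without overlap were found in 5 of the 91 tested genes of these 6 lists, beside 8.56% of all genes tested.

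**Figure D4:**
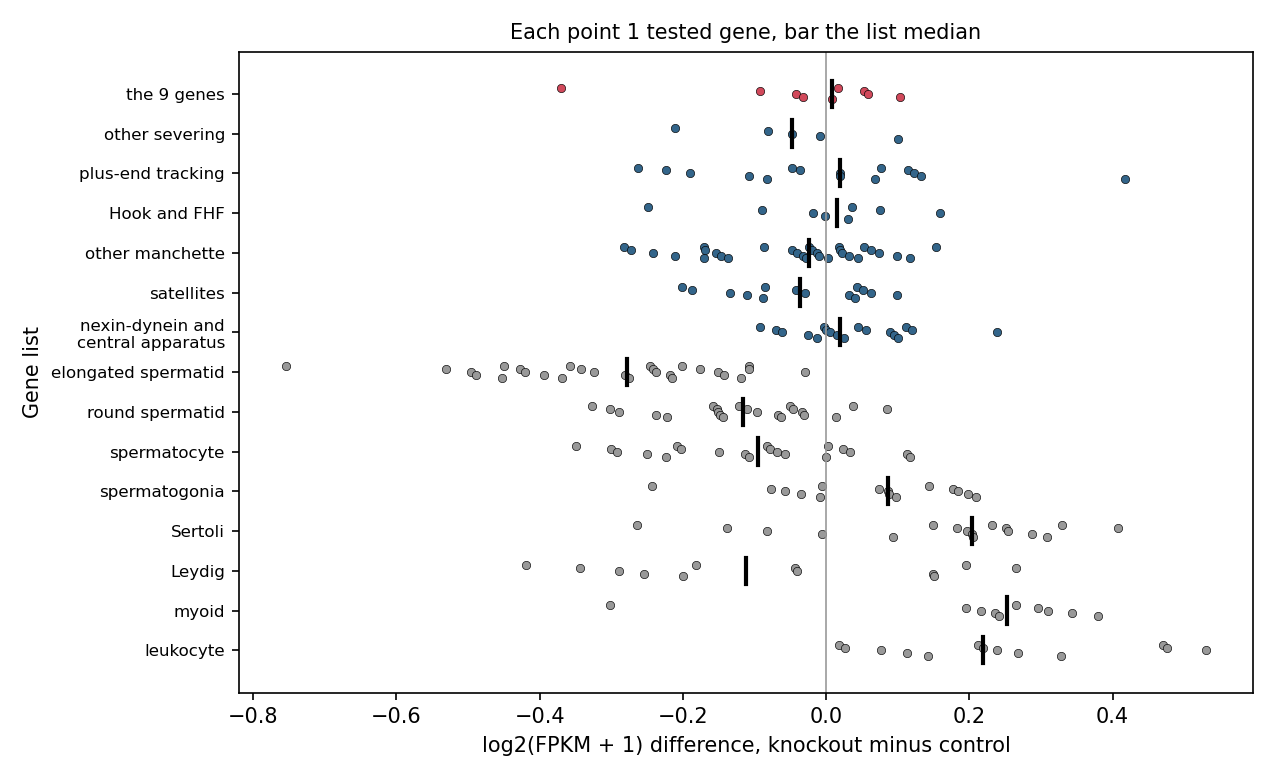
Difference in log2(FPKM + 1), knockout minus control, of each tested gene (points) and the median (bar) in the 9 genes (red), 6 pathway lists (blue) and 8 cell type lists (grey). The pathway medians lie between -0.048 and 0.020, and the elongated spermatid median lies at -0.28.

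The medians of several cell type lists lay further from 0 than those of the pathway lists, with 0 genes called by limma in any list. Elongated spermatid genes were lower in mean value for 28 of 28 and round spermatid genes for 19 of 22, with medians of -0.28 and -0.12. The round spermatid median was -0.047 without Ctrl1, -0.21 without KO1, -0.032 without KO2, -0.066 without KO3 and -0.064 after quantile normalization; those of the elongated list are given above. The summed level of the elongated spermatid list was 17460 to 27921 FPKM over the controls and 13965 to 24365 FPKM over the KO libraries. Sertoli genes were higher for 13 of 17, myoid genes for 9 of 10 and leukocyte genes for 13 of 13, with medians of 0.20, 0.25 and 0.22. The myoid median was 0.42 without KO1 and 0.13 without KO2, and the leukocyte median 0.13 without KO3. Leydig genes were lower for 8 of 12, with a median of -0.11 that was 0.080 without KO3, -0.029 without Ctrl3, -0.22 without KO1 and -0.20 without KO2. Their summed levels were 863 to 937 and 862 to 1120 FPKM for Sertoli, 212 to 237 and 201 to 246 FPKM for myoid, and 65.6 to 74.6 and 69.6 to 97.9 FPKM for leukocyte genes. For Leydig genes they were 404 to 438 FPKM over the controls and 261 to 482 FPKM over the KO libraries. Spermatocyte genes were lower for 14 of 20 and spermatogonial genes higher for 9 of 15, with medians of -0.095 and 0.087. Without KO1 these were -0.17 and 0.16, the spermatocyte median was -0.049 without KO2 and -0.059 after quantile normalization, and the spermatogonial median was 0.057 without Ctrl1, 0.047 without Ctrl2 and -0.026 without KO3. Of the 9 genes, only Hook1 had a difference beyond the elongated spermatid median, and the other 8 lay between -0.092 and 0.10. The part of cell content in the values of the 9 genes was not tested.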

How the data were processed

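Per the labels' protocols, testis RNA was taken up with Trizol and a SMARTER mRNA-Seq kit was used for the libraries. The file deposited by the authors holds FPKM per gene for all 6 samples. GRCm38 and mm10 stand in the submitters' processing notes; aligner, counter, strand and filters: not given in the sources used here. FPKM times gene length came to whole reads for 100% of values above 0 (tolerance 0.001 reads, or a millionth of the value), which gave the depth.

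All genes averaging 0.5 FPKM or more entered limma 3.58.1 under R 4.3.3 on the scale log2(FPKM + 1), with a mean-variance trend and group as the only term; folds of low genes come out too small there. Of the 54409 entries also in GENCODE M21, 98.3% had the same coordinates. Named genes were the 9 members, 2 of highest mean and 2 of smallest p per pathway list, and the 2 of nearest profile for members ranging over 0.5. Cell type lists, to which the rule also applied, are given by list only, apart from Star, Hsd3b1 and Nr5a1. Hook2, Hook3, Gm6524, Lrch3, Gm17106, Star, Hsd3b1, Nr5a1 and the genes without group overlap were named after their values were seen. A further gene that this rule names is not reported here. The members and lists were chosen with earlier results of these data known. Alternatives were pseudocounts of 0.1 and 0.01, other filters, normalizations and weights, limma-voom, a replicate block and libraries left out. The fit was tested on simulated data, with planted changes larger than any difference of the 9 genes and no shift shared by genes within a library. It therefore does not cover differences of the size described here.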

Additional observations from a re-analysis of the deposited data

How the results depend on the processing

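Over all settings 0 of the 9 genes were called, and the smallest limma adjusted p, 0.145 for Hook1, came without both KO1 and Ctrl3, a setting chosen after seeing the data (log2 difference -0.68). Over all genes, limma-voom on the recovered reads called 1 gene lower and 0 higher, and every other setting called 0. Each library left out in turn gave 3 to 8 of 9 genes lower in mean value (8 without KO2, 3 without KO3) and a median from -0.052 to 0.024. Direction depended on single libraries for 6 genes: leaving out 1 library gave Rimbp3 -0.039 to 0.13, Clip1 -0.052 to 0.20, Cep131 -0.082 to 0.29, Katnal2 -0.072 to 0.073, Iqcg -0.10 to 0.024 and Spef2 -0.059 to 0.12. Without both KO1 and Ctrl3, Katnal2 was at -0.019 and Spef2 at -0.046. Hook1 ran from -0.58 to -0.19, Katna1 from -0.15 to -0.049 and Lrguk from -0.065 to -0.019. The 6 pathway medians also moved: with 1 library left out they lay between -0.095 and 0.060, and 5 of the 6 changed sign in at least 1 such setting. Without both KO1 and Ctrl3 the elongated and round spermatid medians were -0.70 and -0.26. The cause of these changes was not tested.

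Same-numbered libraries deviated together with correlations of 0.29, 0.041 and 0.20 over all genes tested, and each control correlated best with its own number, which is a hint and not the design. With the replicate number as a block 0 genes were called, the median of the 9 was 0.0080, and Hook1 had a difference of -0.37 (limma adjusted p = 0.662). With 3 libraries a group, the median standard error over all genes tested was 0.14 on the log2 scale, which limits what could be detected.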
